A study of Mus musculus with 4 samples.

Results

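The genes described here are receptors for EGF and FGF, the mitogens in the culture medium, together with their near relatives, the adaptors that couple them to Ras, and the receptor phosphatase gene Ptprz1. The list of 10 genes (Egfr, Erbb2, Erbb3, Fgfr1, Fgfr2, Fgfr3, Frs2, Grb2, Sos1 and Ptprz1) was set by symbol, and 9 of them have a row among the 13881 genes of the table. Erbb3 was not analysed here. All 9 others had a mean of at least 1 FPKM (reads scaled to gene length and library size) over the 4 libraries and entered the test. Transcripts were counted in neural progenitor cells isolated from embryonic day 14 forebrain of C57bl/6 mice and expanded in medium that held 20 ng/ml of EGF, the same amount of FGF-2 and 2% B27 without vitamin A. The groups are 2 control libraries, whose vector the labels do not name, and 2 libraries made after infection with a lentivirus that expresses a short hairpin RNA (shRNA) against Rybp (shRybp). All cells therefore received both mitogens from the medium. Nothing in the labels says that the libraries of a group came from separate cultures or animals, so p-values reflect the scatter among these libraries alone, and that scatter may be technical.

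EGF and FGF receptors are tyrosine kinases that pair up in the membrane when ligand binds and phosphorylate each other's tails. The docking protein Frs2, bound to FGF receptors, and the adaptor Grb2, bound to both receptor families, then bring the exchange factor Sos1 to the membrane, where it loads Ras with GTP and starts the ERK cascade. In forebrain progenitors these inputs keep cells dividing in culture. Fgfr3 and Egfr also mark radial glia and cells of the astrocyte lineage, and Ptprz1, a transmembrane phosphatase with chondroitin sulphate chains and the growth factor pleiotrophin as a ligand, is abundant in radial glia and oligodendrocyte precursors.

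The table gave between 14355308 and 17598873 counts per library. Rybp stood at 65.8% of its control level in shRybp (95% interval 55.2 to 78.4%, adjusted p = 0.0017), so most of its transcript was still present. Markers of the labelled cell type were present, and all 12 progenitor or radial glia markers listed had a row. Their summed level was 3420 and 3150 FPKM in the control libraries and 2670 and 2580 in shRybp. This sum covers 2 markers that rose and 5 that fell. Defining genes of microglia and endothelium were at or near the floor, with 2 of 8 and 2 of 7 markers in the table and a summed level of at most 0.967 and 0.765 FPKM in any library. Of the fibroblast, meningeal and mural markers 3 of 8 were in the table, and their sum was 3.44 and 3.24 FPKM in control and 5.02 in each shRybp library.

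The sequences upstream of the 4 genes that fell are shown because members that move together can be compared for shared letters. RefSeq windows (build GRCm38.p6) were matched by symbol for 8 of the 10 genes, in 10 entries, with none for Fgfr1 and Erbb3. Each sequence below is written 5′ to 3′ on the strand of its gene and ends at the annotated start or, for Fgfr3, before the first annotated exon. Capitals mark matches to 3 motifs searched on both strands: TGGGAA, the core bound by the Notch partner RBPJ, CACNAG, the N-box, and CACGNG, the class C box of Hes and Hey repressors. The letters CACGAG would satisfy both of the last motifs.
Fgfr3, chr5:33721474-33721673, plus strand: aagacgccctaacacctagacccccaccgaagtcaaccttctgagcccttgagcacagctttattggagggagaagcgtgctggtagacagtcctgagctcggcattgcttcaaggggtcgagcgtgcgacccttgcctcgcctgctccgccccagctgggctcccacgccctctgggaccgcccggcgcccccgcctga
Ptprz1, chr6:22875252-22875501, plus strand: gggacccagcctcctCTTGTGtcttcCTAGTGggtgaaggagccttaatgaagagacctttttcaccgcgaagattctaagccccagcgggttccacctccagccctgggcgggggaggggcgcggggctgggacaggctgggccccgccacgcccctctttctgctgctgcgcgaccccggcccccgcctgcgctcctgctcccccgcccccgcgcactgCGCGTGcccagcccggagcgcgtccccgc
Egfr, chr11:16751953-16752202, plus strand: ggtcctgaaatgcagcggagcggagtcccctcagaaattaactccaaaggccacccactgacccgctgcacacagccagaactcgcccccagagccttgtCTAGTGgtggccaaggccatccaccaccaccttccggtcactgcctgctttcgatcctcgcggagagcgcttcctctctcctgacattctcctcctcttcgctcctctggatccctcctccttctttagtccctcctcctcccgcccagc
Fgfr2, chr7:130266809-130267058, minus strand: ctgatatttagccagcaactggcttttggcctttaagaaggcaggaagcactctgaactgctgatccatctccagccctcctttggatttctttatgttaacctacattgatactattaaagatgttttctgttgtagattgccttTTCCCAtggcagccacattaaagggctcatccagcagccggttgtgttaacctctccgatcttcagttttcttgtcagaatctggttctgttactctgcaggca

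No motif occurred in all 4 windows, and only the N-box occurred in more than 1. Ptprz1 held 2 N-boxes and 1 class C box, Egfr 1 N-box and Fgfr2 1 RBPJ core, and the 250 bases upstream of either Fgfr3 entry held none of the 3 motifs. Among all 32851 windows of 250 bases in the RefSeq table, 36.7% held an N-box, 23.5% a class C box and 21.6% an RBPJ core. CpG dinucleotides, at which DNA methylation and Polycomb recruitment act, numbered 19 and 24 in the Fgfr3 entries, 22 in Ptprz1 and 11 in Egfr, against a median of 6 over all windows. The Fgfr3 entry with 24 lay within its annotated gene. The Fgfr2 entry, an internal start site within the annotated gene, held 2. Of the genes that did not pass the test, Sos1 held 22, Frs2 19 and Erbb2 16. The Grb2 entries, also internal start sites within the annotated gene, held 2 and 6.

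Of the 9 genes tested, 1 rose and 4 fell in shRybp. Fgfr1 rose, and Fgfr3, Ptprz1, Fgfr2 and Egfr fell, while Erbb2 and the adaptors Frs2, Grb2 and Sos1 did not pass the test (edgeR quasi-likelihood test, adjusted p under 0.05 over all genes). Across all 12062 genes tested 33.0% passed, 16.3% upward and 16.7% downward, so the 55.6% of these 9 genes stands above a background that is itself large, and with 9 genes the excess was not tested. The median log2 fold change was -0.12, against 0.00 over all genes. Levels of the groups did not overlap for 7 of the 9 genes, against 67.5% of all genes.

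**Figure D1:**
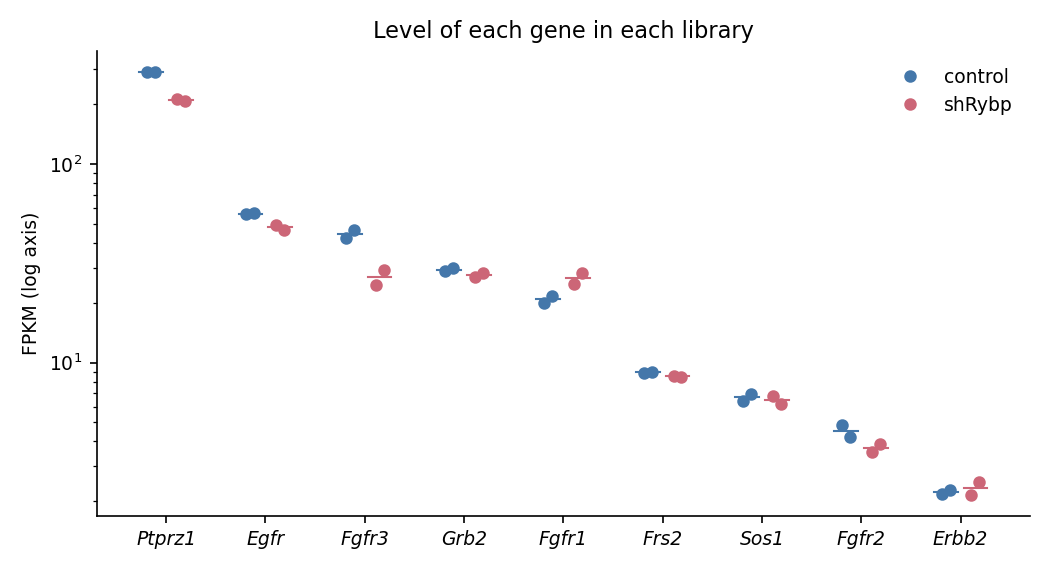
FPKM of each gene on a log axis in each library, with points for libraries and short lines for group means of 2 libraries. The shRybp points of Ptprz1, Egfr, Fgfr3 and Fgfr2 lie below the control points, and those of Fgfr1 lie above.

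In control cells the genes fell into a clear order of level per length. Ptprz1 was highest at 290.6 ± 0.899 FPKM (SD, n = 2), rank 80 of the 12062 tested genes, followed by Egfr, Fgfr3, Grb2, Fgfr1, Frs2, Sos1, Fgfr2 and Erbb2, and the libraries of neighbours in this order did not overlap. In shRybp the middle of the order closed up: Grb2 (27.02 and 28.2 FPKM), Fgfr3 (24.5 and 29.2) and Fgfr1 (24.9 and 28.3) overlapped and could not be ranked.

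Fgfr3 (ENSMUSG00000054252, mm10 chromosome 5, 33721674 to 33737068, plus strand), the FGF receptor of radial glia and astrocytes, fell the most. Its level was 42.4 and 46.7 FPKM in the control libraries and 24.5 and 29.2 in the shRybp libraries. Both shRybp libraries lay well below both controls, from counts between 2519 and 5355. The level in shRybp was 58.8% of control (95% interval 52.1 to 66.3%), on the log2 scale a change of -0.77 (SE 0.08, adjusted p = 1.9e-05). A short unclassified transcript, G630022F23Rik, shares exon bases with Fgfr3 on the opposite strand, with 33, 38, 13 and 18 counts of its own, and reads of the pair cannot be told apart without strand information.

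Fgfr1 (ENSMUSG00000031565, chromosome 8, 25513654 to 25575718, plus strand), the FGF receptor most broadly used by dividing progenitors, went the other way. Its level was 19.9 and 21.6 FPKM in control and 24.9 and 28.3 in shRybp, and the groups did not overlap. The rise was to 125% of control (95% interval 112 to 139%), on the log2 scale a change of 0.32 (SE 0.07, adjusted p = 0.0040). It overlaps an antisense gene model, Gm16159. The annotation lists 19 transcripts of Fgfr1, 9 of them protein-coding, and gene counts sum them, so splice forms with different ligand preference were not distinguished for this or the other receptors.

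Fgfr2 (ENSMUSG00000030849, chromosome 7, 130162451 to 133123350, minus strand), the third receptor for the same ligands, was about an order of magnitude lower than Fgfr3. Control libraries had 4.83 and 4.21 FPKM and shRybp libraries 3.52 and 3.87, so the groups were separate but close. It fell to 79.8% of control (95% interval 69.0 to 92.2%, log2 fold change -0.33, SE 0.10, adjusted p = 0.021). The call ended without control replicate 1 (log2 change -0.22, adjusted p = 0.16), without shRybp replicate 1 (-0.26, adjusted p = 0.095) and in limma on log2(FPKM + 1) (-0.23, adjusted p = 0.11). Its annotated model spans 2960900 bases, over many other genes, and shares exon bases with Ctbp2 on the same strand, which had 1188 and 1114 counts in control and 1272 and 1316 in shRybp.

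Opposite changes shifted the balance between these 3 FGF receptors. Fgfr4 was not included. Fgfr3 supplied 63.2% and 64.4% of the summed FPKM of Fgfr1, Fgfr2 and Fgfr3 in control and 46.2% and 47.6% in shRybp. Fgfr1 supplied 29.7% and 29.8% in control and 47.1% and 46.1% in shRybp. The share of Fgfr2 was 6.49% in each group on average. Control cells thus held more Fgfr3 than Fgfr1 message per length, with a ratio of 2.13 and 2.16, and shRybp cells nearly equal amounts, with a ratio of 0.982 and 1.03. An exact two-sided permutation test of this ratio gave p = 0.33, the smallest value that 2 against 2 libraries allow. The summed level of the 3 receptors was 67.2 and 72.5 FPKM in control and 52.9 and 61.3 in shRybp.

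**Figure D2:**
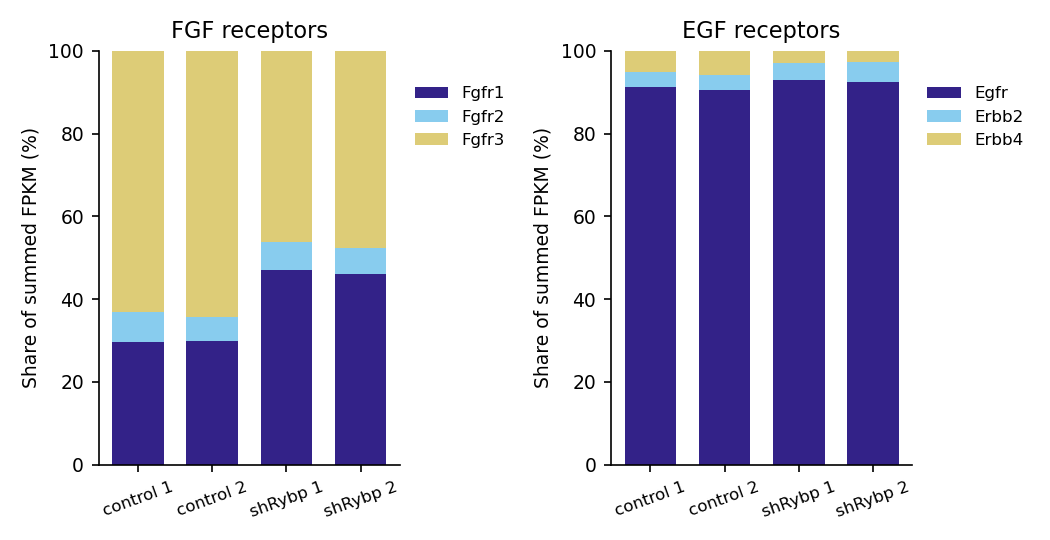
Share of each receptor in the summed FPKM of the receptors in its panel (percent, stacked to 100) in each of the 4 libraries. Fgfr1, Fgfr2 and Fgfr3 are on the left and Egfr, Erbb2 and Erbb4 on the right. Fgfr4 and Erbb3 are not included. The Fgfr1 share is below 30% in both control libraries and above 46% in both shRybp libraries. Egfr holds over 90% of the sum of its panel in every library.

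Egfr (ENSMUSG00000020122, chromosome 11, 16752203 to 16918158, plus strand), the receptor for the EGF in the medium, fell by a modest amount. Its level was 56.0 and 56.5 FPKM in control and 49.2 and 46.7 in shRybp, from at least 8022 counts per library. The groups did not overlap, and the controls were nearly identical. The level in shRybp was 83.2% of control (95% interval 75.8 to 91.4%), on the log2 scale a change of -0.27 (SE 0.06, adjusted p = 0.0060), and the call ended without shRybp replicate 2 (-0.22, adjusted p = 0.057).

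Erbb2 (ENSMUSG00000062312, chromosome 11, 98412470 to 98437716, plus strand), the relative that binds no ligand and serves as a partner for the others, was the lowest of the 9 genes. It had 2.18 and 2.28 FPKM in control and 2.16 and 2.50 in shRybp, which overlap. Its log2 fold change was 0.03 with a 95% interval of -0.25 to 0.31 (adjusted p = 0.88), from counts of 162 to 214, and the interval is the widest of the 9 genes. Exon bases of Erbb2 overlap Mien1 on the opposite strand, which had 306 to 369 counts. Erbb4, a neuregulin receptor and the remaining family member in the table, had 3.18 and 3.55 FPKM in control and 1.58 and 1.35 in shRybp, and fell by 1.24 on the log2 scale (SE 0.10, adjusted p = 2.9e-06). Its share of the summed FPKM of Egfr, Erbb2 and Erbb4 was 5.44% ± 0.36 (SD, n = 2) in control and 2.83% ± 0.21 in shRybp, while that of Egfr was 90.9% ± 0.45 and 92.7% ± 0.40 and that of Erbb2 3.61% ± 0.081 and 4.51% ± 0.61.

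Ptprz1 (ENSMUSG00000068748, chromosome 6, 22875502 to 23052916, plus strand) was among the most abundant messages of the cells and fell with little spread. It had 289.9 and 291.2 FPKM in control and 212.1 and 206.8 in shRybp. The gap between groups was many times the difference between libraries of a group, and the gene alone took 0.414% and 0.416% of all counts in control and 0.303% and 0.295% in shRybp. The level in shRybp was 70.3% of control (95% interval 63.3 to 78.1%), on the log2 scale a change of -0.51 (SE 0.07, adjusted p = 0.00017).

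The adaptors did not pass the test. Grb2 (ENSMUSG00000059923, chromosome 11, 115644045 to 115708597, minus strand), which links phosphorylated receptors to Sos proteins, had 28.9 and 29.8 FPKM in control and 27.02 and 28.2 in shRybp (log2 change -0.12, 95% interval -0.27 to 0.03, adjusted p = 0.20). Frs2 (ENSMUSG00000020170, chromosome 10, 117069427 to 117148534, minus strand), the FGF receptor docking protein, had 8.88 and 8.98 FPKM in control and 8.58 and 8.45 in shRybp (log2 change -0.11, 95% interval -0.25 to 0.04, adjusted p = 0.26). The libraries of the groups did not overlap for these genes, as for 67.5% of all genes. Sos1 (ENSMUSG00000024241, chromosome 17, 80393751 to 80480453, minus strand), the Ras exchange factor, had 6.43 and 6.95 FPKM in control and 6.75 and 6.18 in shRybp, which overlap (log2 change -0.09, 95% interval -0.25 to 0.08, adjusted p = 0.43). The intervals exclude a fall of the size of that of Fgfr3 in all 3 adaptors.

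**Figure D3:**
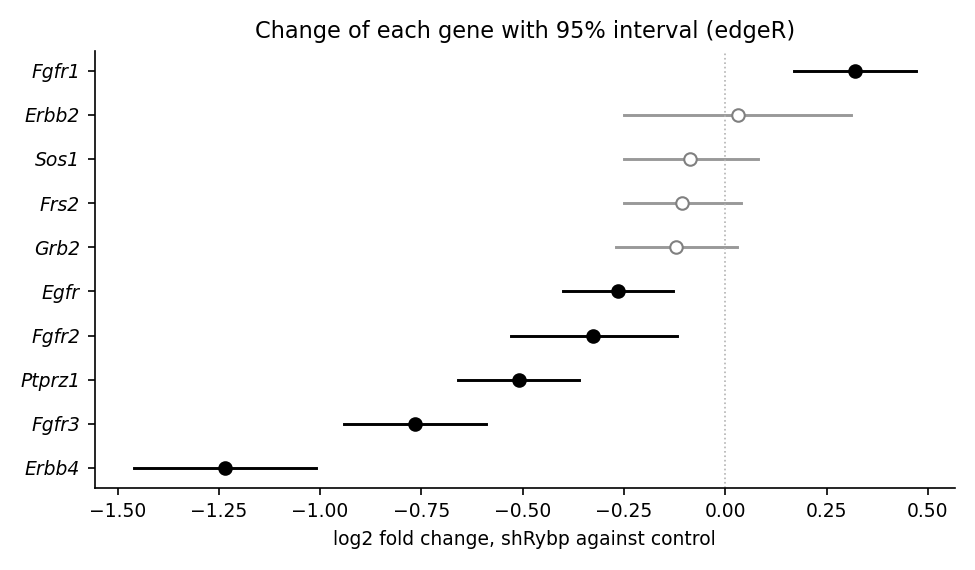
Log2 fold change of shRybp against control for the 9 genes and Erbb4, with 95% intervals from the edgeR fit, filled where the adjusted p was under 0.05. Fgfr1 lies to the right of 0 at 0.32, Erbb4, Fgfr3, Ptprz1, Fgfr2 and Egfr lie to the left, and the intervals of Erbb2 and the adaptors cross 0.

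Glial markers moved in the same libraries as Fgfr3 and Ptprz1. All 8 astrocyte markers listed fell, with a median log2 fold change of -1.06 and a summed level of 603 and 615 FPKM in control and 240 and 260 in shRybp. Of 8 oligodendrocyte lineage markers tested 3 fell, and their sum was 801 and 828 FPKM in control and 739 and 774 in shRybp. Of 11 progenitor markers tested 2 rose and 5 fell. Across all genes 16.3% rose and 16.7% fell, and no excess among these marker lists was tested. The part of these lineages in the falls of the receptors was not tested, and in RNA from whole cultures fewer cells of a type and less message per cell cannot be told apart.

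Other tested genes with a pattern close to that of a member were found by the root mean square difference of log2 library-scaled counts over the 4 libraries, each gene centred on its control mean. Genes chosen this way have a fold change close to that of the member by construction, so their changes are not a separate result. Nearest to Fgfr3 were Sfxn5 (0.034), Mxd1 (0.036) and Myorg (0.037). All 3 fell, with log2 fold changes of -0.77, -0.79 and -0.81. Among the nearest to Ptprz1 were Ccdc91 (0.008) and Scp2 (0.011), which fell to 70.0% and 70.3% of control. Nearest to Fgfr2 were Gm15590 (0.014), 2210016L21Rik (0.018) and H2-T23 (0.021). Of these, 2210016L21Rik fell (log2 change -0.31) and the others did not pass the test. Gm15590 had only 14 to 25 counts per library. The call of 2210016L21Rik ended under library totals (adjusted p = 0.055), without control replicate 1 (-0.18, adjusted p = 0.27) and without shRybp replicate 1 (adjusted p = 0.15).

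Beyond the members, 192 genes in 10 lists of the pathway were examined, of which 140 were tested. Of these 20 rose and 33 fell, 37.9% against 33.0% of all genes, and the median log2 fold change was -0.08.

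Most ligand genes of both families were not tested, either for lack of a row or because they were below the filter. Of 11 EGF family ligands 6 had a row and 3 were tested. Tgfa, an autocrine ligand of Egfr, had 5.06 and 5.51 FPKM in control and 3.04 and 2.93 in shRybp and fell (log2 change -0.86, SE 0.09, adjusted p = 1.9e-05). Areg, amphiregulin, rose from 1.35 and 1.55 to 2.52 and 3.21 FPKM (0.95, SE 0.25, adjusted p = 0.012), but lost the call without shRybp replicate 2 (0.76, adjusted p = 0.11), without control replicate 1 (0.86, adjusted p = 0.050) and in DESeq2 (adjusted p = 0.098). Egf was at 0.202 FPKM in control and below the filter. Of 22 FGF family ligands 6 had a row and 4 were tested. Fgf11, an intracellular family member that is not a receptor ligand, was the only one past the test, downward (-0.76, SE 0.15, edgeR adjusted p = 0.0017). Without control replicate 2 its change was -0.47 (adjusted p = 0.0035). Fgf1 was the highest at 16.7 FPKM in each group, and Fgf2, the mitogen supplied in the medium, was below the filter at 0.670 FPKM in control and 0.564 in shRybp.

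Receptors and co-receptors outside the list of 10 went down where they moved. Of 6 tested, 4 fell and 0 rose, where 16.7% of all genes fell and 16.3% rose, and the excess was not tested. Those that fell were Erbb4, the FGF receptor-binding membrane protein genes Flrt2 (-0.99) and Flrt3 (-0.27), and Ncam1 (-0.33). Ncam1 encodes an adhesion molecule that binds FGF receptors. Flrt3 lost the call under library totals (-0.24, adjusted p = 0.069) and without control replicate 1, control replicate 2 or shRybp replicate 2 (adjusted p of 0.11, 0.076 and 0.30). Fgfrl1, a receptor with no kinase domain, had 24.2 and 24.2 FPKM in control and 21.7 and 24.8 in shRybp, not past the test (-0.09, adjusted p = 0.41).

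Heparan sulphate chains hold FGF on its receptor, and genes of their carriers and enzymes changed in both directions. Of 22 tested, 8 rose and 3 fell, 50.0% against 33.0% of all genes, with a median of 0.14. The number that rose was 5 without either shRybp replicate. The largest rise was that of Sdc1, a cell surface carrier, from 7.86 and 8.70 to 15.3 and 16.4 FPKM (log2 change 0.90, SE 0.09, adjusted p = 1.2e-05). The sulphotransferase gene Hs6st2 (0.59), the extracellular sulphatase gene Sulf2 (0.48) and the glypican gene Gpc1 (0.44) rose too. Sdc4 (-0.41), Sdc2 (-0.34) and Gpc5 (-0.71) fell. Sdc2 lost the call without control replicate 1 (adjusted p = 0.053), and Gpc5 without control replicate 1 (-0.37, adjusted p = 0.33) and without shRybp replicate 2 (adjusted p = 0.19).

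Among 19 other genes for proteins that act next to the receptors 2 rose and 4 fell, 31.6%, close to the 33.0% of all genes. Shc1, an adaptor that binds activated receptors and recruits Grb2, rose from 2.77 and 3.19 to 5.32 and 5.78 FPKM (log2 change 0.86, SE 0.10, adjusted p = 4.1e-05), and so did the docking protein gene Dok1 (0.82). The Src family kinase genes Yes1 (-0.51) and Fyn (-0.37), the docking protein gene Gab1 (-0.26) and the adaptor gene Crk (-0.21) fell. The call of Crk ended without control replicate 1 (-0.12, adjusted p = 0.33), without shRybp replicate 2 (adjusted p = 0.20) and under library totals (adjusted p = 0.073).

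Of 21 genes of the Ras-ERK cascade below the receptors 1 rose and 4 fell, 23.8% against 33.0% of all genes, with a median of 0.00. Under library totals 3 rose and 2 fell, and 2 rose without shRybp replicate 1. Mapk3, which encodes ERK1, rose from 25.8 and 29.1 to 35.6 and 38.4 FPKM (log2 change 0.40, adjusted p = 0.0021), and the Ras-like gene Rras2 (-0.53) and the Ras GTPase-activating genes Rasa2 (-0.32), Rasal2 (-0.22) and Rasa3 (-0.18) fell. Each of the 4 falls lost the call without shRybp replicate 2, at adjusted p of 0.11, 0.17, 0.18 and 0.075. Rasa2 also lost it without control replicate 1 (0.13), Rasal2 without control replicate 2 (-0.12, adjusted p = 0.34), and Rasa3 with any library left out.

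Of 16 genes of the PI3K-Akt branch 1 rose and 1 fell, 12.5% of those tested against 33.0% of all genes. Pik3r1, which encodes the main regulatory subunit of PI3-kinase, had 36.7 and 36.4 FPKM in control and 20.4 and 17.8 in shRybp (log2 change -0.97, adjusted p = 1.3e-06). Akt1 rose from 57.7 and 56.0 to 73.1 and 77.1 FPKM (0.37, adjusted p = 0.00062).

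Among 25 genes for receptor down-regulation and turnover 2 rose and 5 fell, 28% against 33.0% of all genes. Cbl, the ubiquitin ligase that marks Egfr for degradation, fell (log2 change -0.36, adjusted p = 0.0050), with the endophilin gene Sh3gl3 (-1.12), the early endosome gene Rab5a (-0.34), Lrig3 (-0.49) and the endophilin gene Sh3gl2 (-0.27). Socs5 (0.27) and Cd2ap (0.24) rose. In limma on log2(FPKM + 1) the call of Cbl ended (-0.31, limma adjusted p = 0.055). Calls that ended with 1 library left out were those of Lrig3 (without control replicate 2, -0.33, adjusted p = 0.13, and without shRybp replicate 1 or 2), Sh3gl2 (without control replicate 2, adjusted p = 0.058, or shRybp replicate 2, -0.20, adjusted p = 0.20), Socs5 (without control replicate 2, adjusted p = 0.092, or shRybp replicate 2) and Cd2ap (without either control replicate or shRybp replicate 1, adjusted p of 0.096, 0.11 and 0.19). Lrig1, the inhibitor of ErbB receptors that is also a stem cell marker, was at 116.2 FPKM in control and 106.8 in shRybp, not past the test (-0.16, adjusted p = 0.073).

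Genes of proteases that release membrane-bound EGF family ligands, listed together with the rhomboid family gene Rhbdf1, were split. Of the 8 tested 3 were up and 2 down, where 16.3% of all genes rose and 16.7% fell. The excess was not tested. Adam19, which can cleave neuregulins, rose from 11.2 and 12.9 to 28.1 and 30.4 FPKM (log2 change 1.25, SE 0.07, adjusted p = 2.5e-07), and Rhbdf1 (0.61) and Adam10 (0.27) rose as well. Adam9 (-0.22) and Adam17 (-0.19), the main sheddase of Tgfa, fell. Adam9 lost the call without shRybp replicate 1 (adjusted p = 0.054), and Adam17 under library totals (adjusted p = 0.074) and without control replicate 1, shRybp replicate 1 or shRybp replicate 2 (adjusted p of 0.20, 0.11 and 0.16).

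The list of ligands and binding partners of Ptprz1 also held relatives of these genes, such as Cntn6, and other receptor phosphatases. Of its 16 tested genes 8 fell and 2 rose, with a median of -0.25, where 16.7% of all genes fell and 16.3% rose. The excess was not tested. Tnr, a matrix glycoprotein (log2 change -1.02, adjusted p = 6.4e-06), and Ncan, a chondroitin sulphate proteoglycan that dropped from 401.0 and 441.7 to 212.8 and 219.0 FPKM (-1.0, adjusted p = 1.1e-06), fell the most. Cntn6 (-0.57) and Bcan (-0.48) followed. Ptn, the gene of the ligand pleiotrophin, had 716.2 and 636.7 FPKM in control and 554.1 and 531.8 in shRybp (-0.35, adjusted p = 0.0038). Git1, a scaffold protein gene (0.24), and Tnc, a matrix ligand gene of radial glia (0.21), rose. Without control replicate 1, Git1, Tnc and Cntn6 lost the call (adjusted p of 0.054, 0.079 and 0.054), Git1 and Tnc also without control replicate 2 (0.056 and 0.051) and without shRybp replicate 2 (0.19 and 0.095), and Cntn6 without shRybp replicate 1 (0.091).

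**Figure D4:**
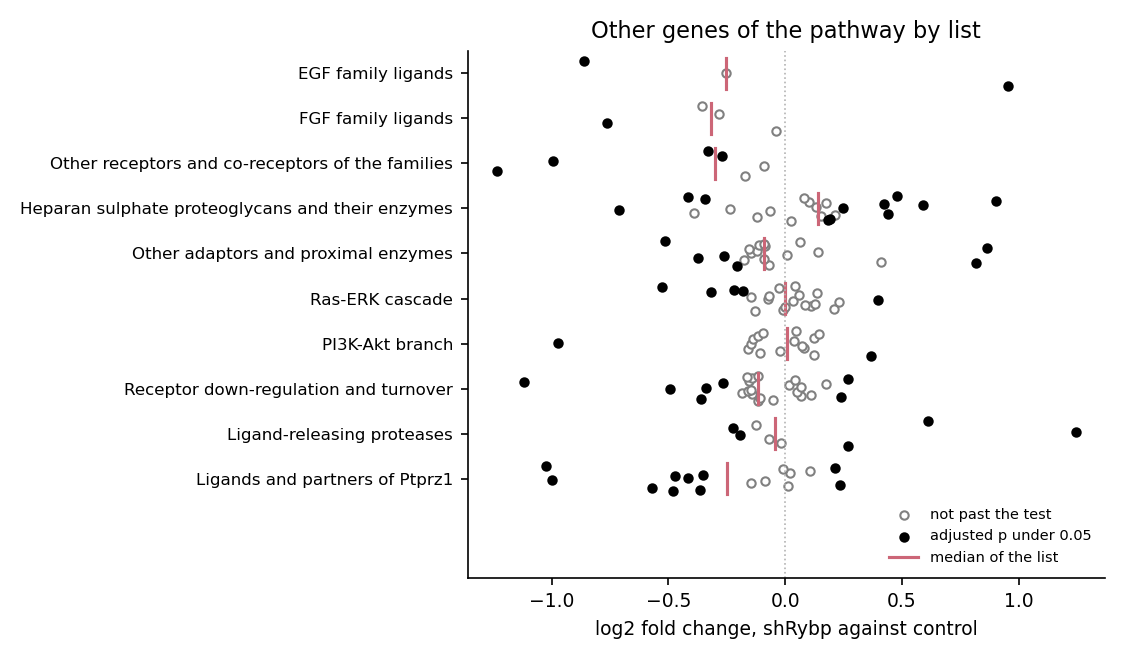
Log2 fold change of shRybp against control for the 140 tested genes of the 10 pathway lists, one point per gene, filled where the adjusted p was under 0.05, with a bar at the median of each list. Most points of the Ras-ERK and PI3K-Akt lists lie close to 0, and most filled points of the Ptprz1 list lie to its left.

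Across the settings tried, the calls of Fgfr1, Fgfr3 and Ptprz1 were the ones that held throughout. Fgfr3 ranged from -0.90 to -0.65, Ptprz1 from -0.53 to -0.47 and Fgfr1 from 0.23 to 0.41 on the log2 scale over 14 alternatives each.

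**Figure D5:**
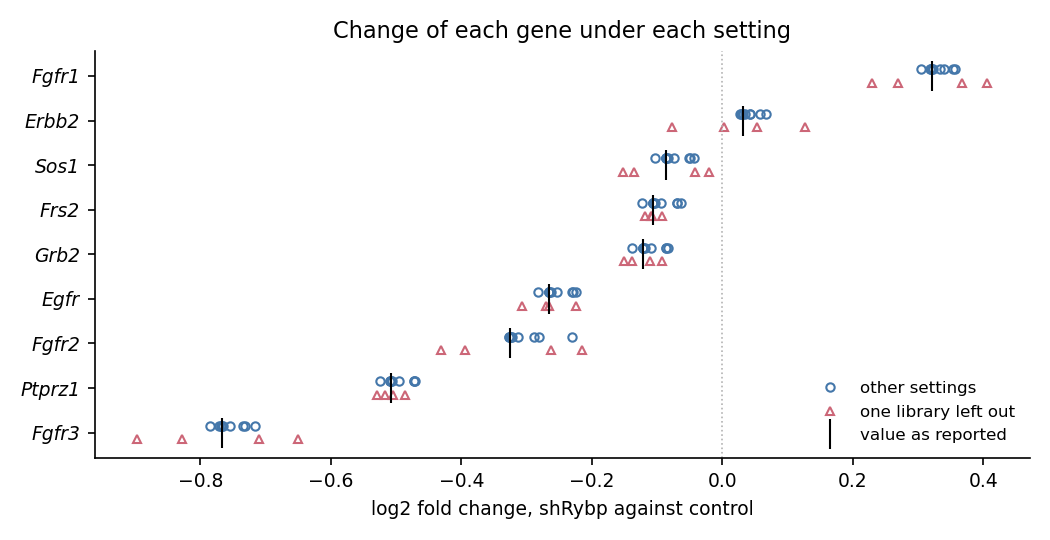
Log2 fold change of each of the 9 genes under every alternative setting, with triangles where 1 library was left out, circles for other settings and a bar for the reported value. The points of Fgfr3, Ptprz1, Fgfr2 and Egfr stay left of 0 and those of Fgfr1 right of it, while those of Erbb2 lie on both sides.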

How the data were processed

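RNA was measured in 4 libraries, 2 control and 2 shRybp. The deposited table holds raw read counts per gene, which the authors did not normalize, and FPKM, which the authors computed from the counts with gene length and library size. The submitters' processing notes name mm10 as the build, with aligner, counter and strand not given in the sources used here. Every gene of the table has at least 40 counts over the 4 libraries. Positions are the table's, with chromosome and strand from GENCODE M21.

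The test used the counts of 12062 genes whose FPKM averaged 1 or more, compared with edgeR 4.0.16 in R 4.3.3 (TMM scaling, two-sided quasi-likelihood test, Benjamini-Hochberg adjustment over all genes, threshold adjusted p 0.05). Standard errors are the absolute log2 fold change over the square root of F. Rose and fell are used only of genes past this test. The script was tested on simulated data. Alternatives used DESeq2 1.42.0 and limma 3.58.1, other scalings and filters, a replicate block and each library left out. In a fit without 1 library, the lone library of its group is assumed to vary like the other group.

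Members and lists were chosen with earlier results of these data known. Named genes are all members and, of each list, up to 4 with the largest change past the threshold in each direction; Egf, Fgf1, Fgf2, Fgfrl1, Lrig1, Ptn and Sh3gl2 fall outside that rule and were chosen after their values were seen. One gene near Ptprz1 in pattern is not reported here.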

Additional observations from a re-analysis of the deposited data

How the results depend on the processing

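Of the 9 genes tested, 1 rose under every setting and 3 or 4 fell. Without 1 library at a time the number that rose was 1 and the number that fell 3 to 4, and a mean FPKM of at least 5 left Fgfr2 and Erbb2 untested. With 1 library left out, the log2 fold change of Erbb2 ranged from -0.077 (without shRybp replicate 2) to 0.127 and that of Fgf1 from -0.091 to 0.009 (0.009 without control replicate 2 and 0.006 without shRybp replicate 1); these were the only genes named whose sign reversed. Over all genes, the number that rose ranged from 1296 to 1640 with 1 library left out, and the number that fell from 1481 to 1760. Across the tested genes, the difference between replicates 1 and 2 in control and that in shRybp had a correlation of 0.103. Nothing in the labels says that a number marks a batch. With the replicate block 1 of the 9 genes rose and 4 fell, and no call of a member changed (Fgfr3 -0.77, Ptprz1 -0.51), while Lrig1 passed (-0.16, edgeR adjusted p = 0.017), as it did with a mean FPKM of at least 5 (edgeR adjusted p = 0.042); over all genes 2676 rose and 2652 fell. Among the pathway lists the block moved the falls to 5 among heparan sulphate genes and to 2 in each ligand family, the rises in the Ras-ERK cascade to 4, and the PI3K-Akt branch to 2 up and 3 down. Shares from counts not divided by gene length were, in control and shRybp, 35.9% and 53.3% for Fgfr1, 8.21% and 7.76% for Fgfr2, 55.9% and 38.9% for Fgfr3, 92.3% and 94.7% for Egfr, 1.68% and 2.12% for Erbb2 and 6.03% and 3.16% for Erbb4. In limma on log2(FPKM + 1), which understates changes of low genes, the log2 change was smaller by more than 1.5 times for Cntn6 (-0.27), Gpc5 (-0.33), Lrig3 (-0.26), Rasa2 (-0.21) and Sh3gl3 (-0.625), and of these the call of Sh3gl3 held. Counts of Erbb2 (162 to 214) limit its precision.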
